A study of Mus musculus with 16 samples.

Results

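Chemokines are small secreted proteins that steer the migration of leukocytes and progenitor cells through G protein-coupled receptors on the responding cell. In bone marrow, stromal cells that make Cxcl12 hold hematopoietic stem cells and lymphocyte precursors, which carry the receptor Cxcr4, while macrophages and stimulated stromal cells make ligands that call in monocytes and neutrophils. The 47 genes described here are every gene on the array whose symbol is Ccl, Cxcl, Ccr or Cxcr followed by a number, out of 16593 gene symbols measured. They comprise 19 CC ligands (Ccl), 13 CXC ligands (Cxcl), 9 CC receptors (Ccr) and 6 CXC receptors (Cxcr). A total of 61 of the 25697 probes on the array matched these genes, and 10 genes had more than 1 probe, in which case the probe with the highest mean over 16 arrays was used. The choice used no comparison between groups.

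RNA came from mouse bone marrow stromal cells kept in osteogenic culture for 7 days, from 8 Hdac3 CKO and 8 wild type samples, all of a mixed CD1 and C57BL6 background. In Hdac3 CKO mice (Osterix1-Cre:Hdac3 CKO) Cre recombinase driven by the Osterix1 promoter, active in the osteoblast lineage, deletes the gene of the histone deacetylase Hdac3. Cells in which that promoter was never active would keep the gene, and which cells of these cultures did was not measured. The labels give neither the age nor the number of animals, nor whether the wild type mice carried Cre, nor whether samples of a genotype came from separate animals, so the p-values reflect array-to-array spread, which may be technical. Arrays are named by genotype and title number (KO15, WT13), and the numbers fall into 5 runs of neighbours. Run 1 holds numbers 5 and 7, run 2 holds 13 to 16, run 3 holds 21 to 24, run 4 holds 30 and 32, and run 5 holds 42 to 47. The genotypes are balanced within every run, with 1 array per genotype in runs 1 and 4 and 2 per genotype in runs 2, 3 and 5. What a title number stands for is not stated.

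Values are log2 of the quantile-normalized probe intensity, and the number of arrays limits the precision. The median probe had a mean of 6.60. No detection call was used, so a gene with a mean near or below that level was not told from background here. Hdac3 itself differed by -0.17 (SE 0.045) between Hdac3 CKO and wild type arrays and was lower in 5 of 5 runs (exact permutation p = 0.00249, two-sided), but its adjusted limma p over all probes was 0.932. Osteoblast and stromal markers were bright (10 of 11 above the median probe, with Lepr at or below it), and so were 12 of 13 macrophage markers. The markers of T and NK cells (0 of 7 above it), B cells (0 of 4) and mast cells (0 of 5) lay at or below the median probe. WT13 and WT14, the wild type arrays of run 2, stood apart from their group: the Y-linked gene Eif2s3y read 5.89 and 6.17 on them, whereas it was between 8.28 and 9.89 on the other 14 arrays. The count of genes that differed between runs, the interactions, and the differences of Cxcr4, Ccl6, Ccl12, Cxcl16, Rarres2, Pik3cg, Vav1 and Prex1 are therefore also given without run 2.

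Of the 47 genes, 15 had a mean above the median probe. They were the CC ligands Ccl2, Ccl3, Ccl4, Ccl6, Ccl7, Ccl9, Ccl11, Ccl12, Ccl24 and Ccl25, the CXC ligands Cxcl1, Cxcl12, Cxcl14 and Cxcl16, and a single receptor, Cxcr4. The other 32 lay at or below it, among them all 9 CC receptors and 5 of 6 CXC receptors. Probes with low signal compress fold changes, so a small difference of one of these 32 genes says little about its transcript.

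No chemokine or chemokine receptor gene passed the test for genotype. At an adjusted p under 0.05, corrected across the 25697 probes, limma called 0 of 47 without a covariate, against 0% of all probes, and 0 of 47 with the run as a fixed block (written below as runs blocked), against 0.218% of all probes (56 probes). At an unadjusted p under 0.05 the counts were 0 of 47 without a covariate (4.74% of all probes) and 1 of 47 with the block (11.2% of all probes), and an exact rank sum test called 0 after adjustment. By value, 29 genes were higher and 18 lower in Hdac3 CKO arrays, with a median difference of 0.014 on the log2 scale. Over all probes 48.7% were higher, with a median difference of -0.0023. The genotypes overlapped for every gene, as they did for all but 0.00778% of probes. Cxcr3, Ccr1 and Cxcl11 had a difference of the same sign in all 5 runs, 3 of 47 genes, against 9.52% of all probes.

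**Figure D1:**
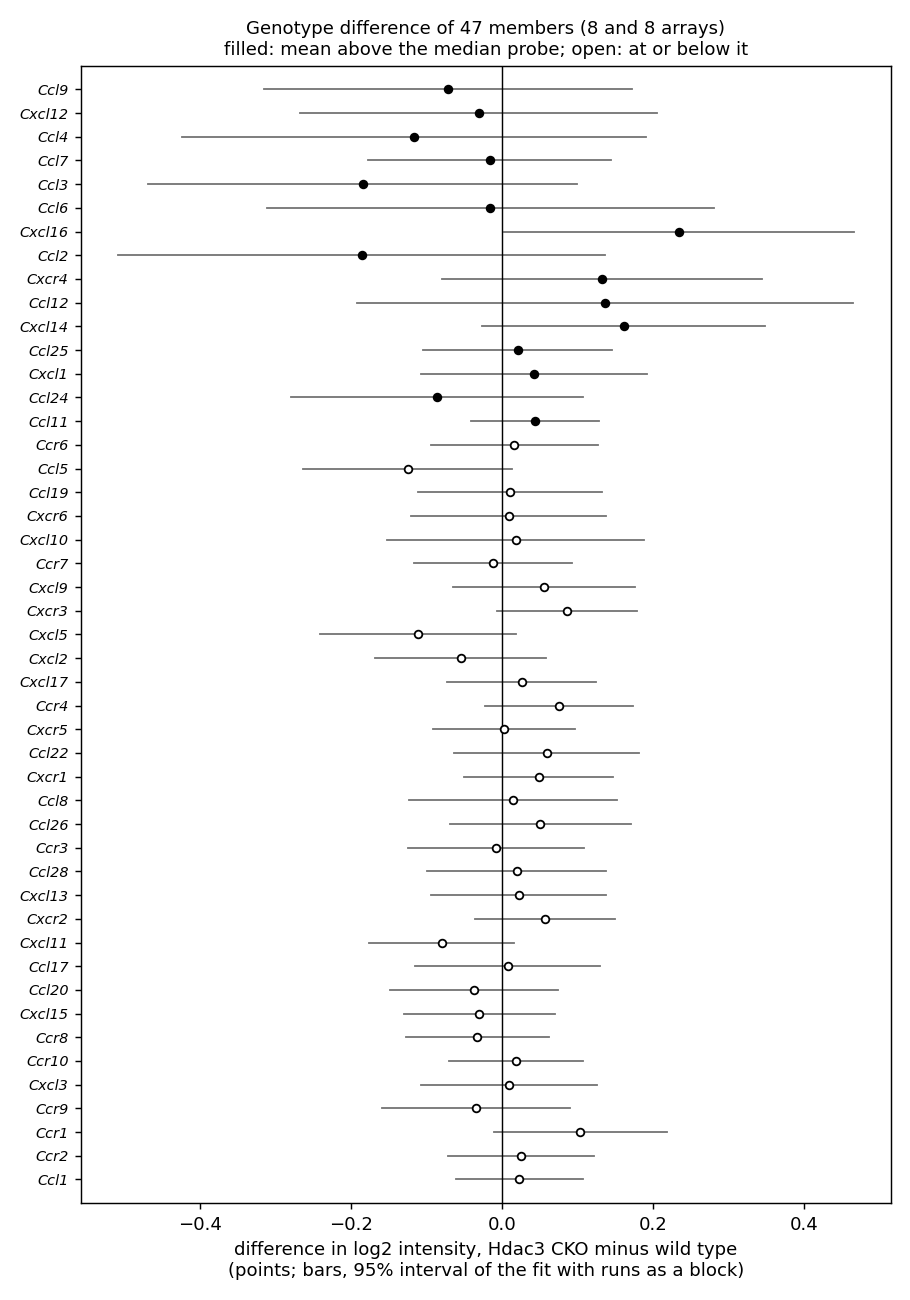
Difference in mean log2 intensity between 8 Hdac3 CKO and 8 wild type arrays (points) with the 95% interval of the limma fit that has the runs as a block (bars), for the 47 chemokine and chemokine receptor genes ordered by mean intensity. Filled points are the 15 genes above the median probe and open points the other 32; every interval but that of Cxcl16 spans 0, and none of the differences passed after adjustment.

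What did separate these arrays was the run. A limma F test of the 5 runs, with genotype in the model, called 17 of the 47 genes at an adjusted p under 0.05, a share of 36.2% against 20.1% of all probes. Of the 15 genes above the median probe 13 differed between runs, where 37.7% of all probes above it did, and of the 32 genes at or below it 4 differed, where 2.49% of such probes did. These shares are descriptions with no test between them. With each run and genotype reduced to 1 mean, giving 5 pairs, 16 of the 47 genes and 16% of all probes passed. Without WT13 and WT14 the count was 18 of 47 (16.1% of probes), with all 17 genes among them, and without the whole of run 2 it was 16 (12.9% of probes), 15 of them among the 17, with Ccl3 and Cxcl9 lost. The 17 genes did not share a profile: 6 had their highest mean in run 3 and 5 in run 2, and 9 had their lowest mean in run 5 and 4 in run 4.

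**Figure D2:**
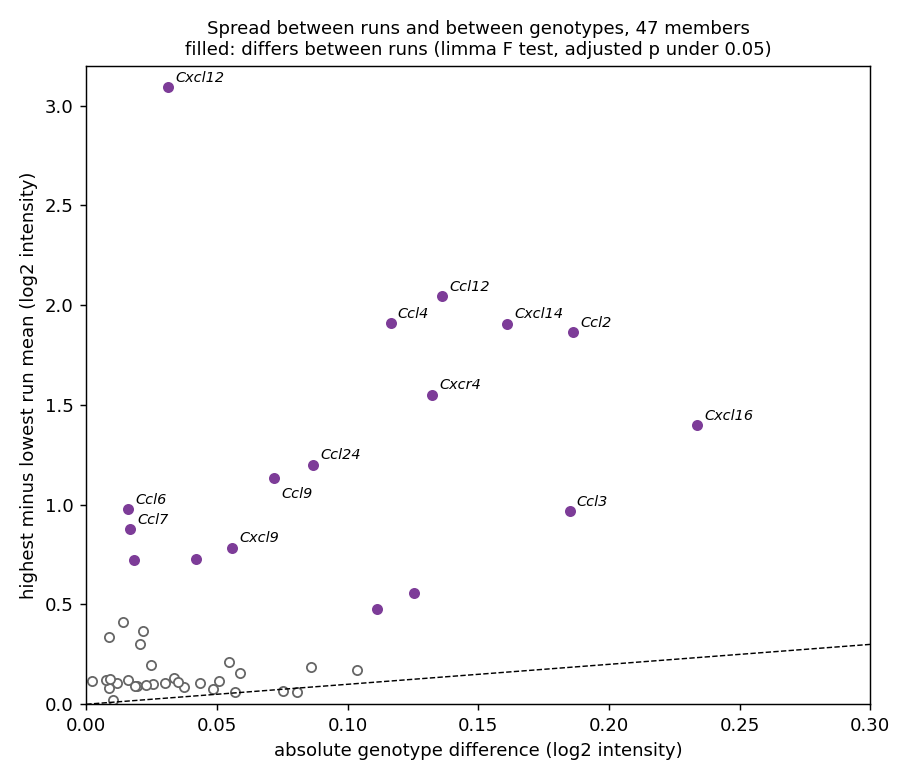
Highest minus lowest run mean (vertical axis) against the absolute genotype difference (horizontal axis), both in log2 intensity, for the 47 genes, with filled points for the 17 genes that differed between runs. The dashed line marks equal values; a range over 5 means tends to exceed a difference of 2 means, so the line is a guide to scale only. Cxcl12 spans 3.09 between runs with a genotype difference of -0.03.

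Cxcl12, the homeostatic ligand of Cxcr4 and a product of marrow stromal cells, had the widest span between runs of the 47 genes. On the Hdac3 CKO arrays Cxcl12 read 12.51 on KO7, 14.15 and 14.22 on KO15 and KO16, 10.81 and 10.95 on KO23 and KO24, 11.76 on KO32, and 12.13 and 12.38 on KO46 and KO47. On the wild type arrays it read 12.75 on WT5, 14.13 and 14.08 on WT13 and WT14, 11.16 and 11.30 on WT21 and WT22, 10.85 on WT30, and 12.27 and 12.59 on WT42 and WT44. All 4 arrays of run 2 were high in both genotypes, all 4 of run 3 and WT30 were low, and the genotypes overlapped. The run means were 12.63, 14.15, 11.05, 11.31 and 12.34 for runs 1 to 5, an 8.53-fold span (adjusted p = 1.80e-08 in the limma F test), whereas the SD within run and genotype was 0.13. Without run 2 the runs still differed (adjusted p = 3.84e-04). The genotype difference was -0.03 (95% interval -0.27 to 0.21 with runs blocked, adjusted p = 0.958). Within runs it was -0.24, 0.08, -0.36, 0.91 and -0.18, and run 4, the largest of these, has 1 array of each genotype. Cxcl12 had 5 probes. The 2 other bright ones also differed between runs (adjusted p = 4.95e-08 and 9.63e-09), with genotype differences of -0.26 and -0.20 (adjusted p = 0.435 and 0.499 with the block), and the remaining 2 read 6.23 and 6.12 on average, below the median probe.

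Cxcr4, the Cxcl12 receptor that keeps hematopoietic cells in marrow, ran between other extremes. On Hdac3 CKO arrays the lowest, median and highest values were 8.63, 9.15 and 10.16, and on wild type arrays 8.04, 8.96 and 10.27. Run 5 held the 4 highest arrays (9.80 to 10.27, both genotypes) and run 2 the 2 lowest wild type arrays, WT13 at 8.04 and WT14 at 8.45. The run means were 8.80, 8.52, 9.06, 9.52 and 10.08 (2.93-fold span, adjusted p = 1.02e-05), so by run mean Cxcr4 was lowest where Cxcl12 was highest. That low mean came mainly from WT13 and WT14. On the Hdac3 CKO arrays of run 2 Cxcr4 read 8.63 (KO15) and 8.98 (KO16), on either side of KO7 in run 1 (8.80). The genotype difference was 0.13 (95% interval -0.08 to 0.34 with the block, adjusted p = 0.690). It rested on run 2, where it was 0.56, and was -0.01 without that run. The promoters of this ligand and receptor, which carry the marrow retention signal, are shown from RefSeq as the 250 bases before the gene start, Cxcl12 at chr6:117168285-117168534 on the plus strand and Cxcr4 at chr1:128592300-128592549 on the minus strand (GRCm38.p6). Capitals mark TATAAA or its reverse complement, the only searched motif found in either, which in Cxcr4 lies 30 to 25 bases before the start and overlaps a reverse match at 32 to 27.
Cxcl12: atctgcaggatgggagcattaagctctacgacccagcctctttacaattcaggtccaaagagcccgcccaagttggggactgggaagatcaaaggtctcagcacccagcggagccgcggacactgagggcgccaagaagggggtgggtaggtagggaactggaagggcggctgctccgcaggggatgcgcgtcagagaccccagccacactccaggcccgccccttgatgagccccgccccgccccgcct
Cxcr4: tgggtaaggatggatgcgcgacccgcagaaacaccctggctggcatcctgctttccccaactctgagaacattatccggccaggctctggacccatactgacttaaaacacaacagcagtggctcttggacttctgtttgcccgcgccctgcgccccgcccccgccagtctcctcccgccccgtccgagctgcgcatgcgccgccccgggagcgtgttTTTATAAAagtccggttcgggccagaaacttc

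**Figure D3:**
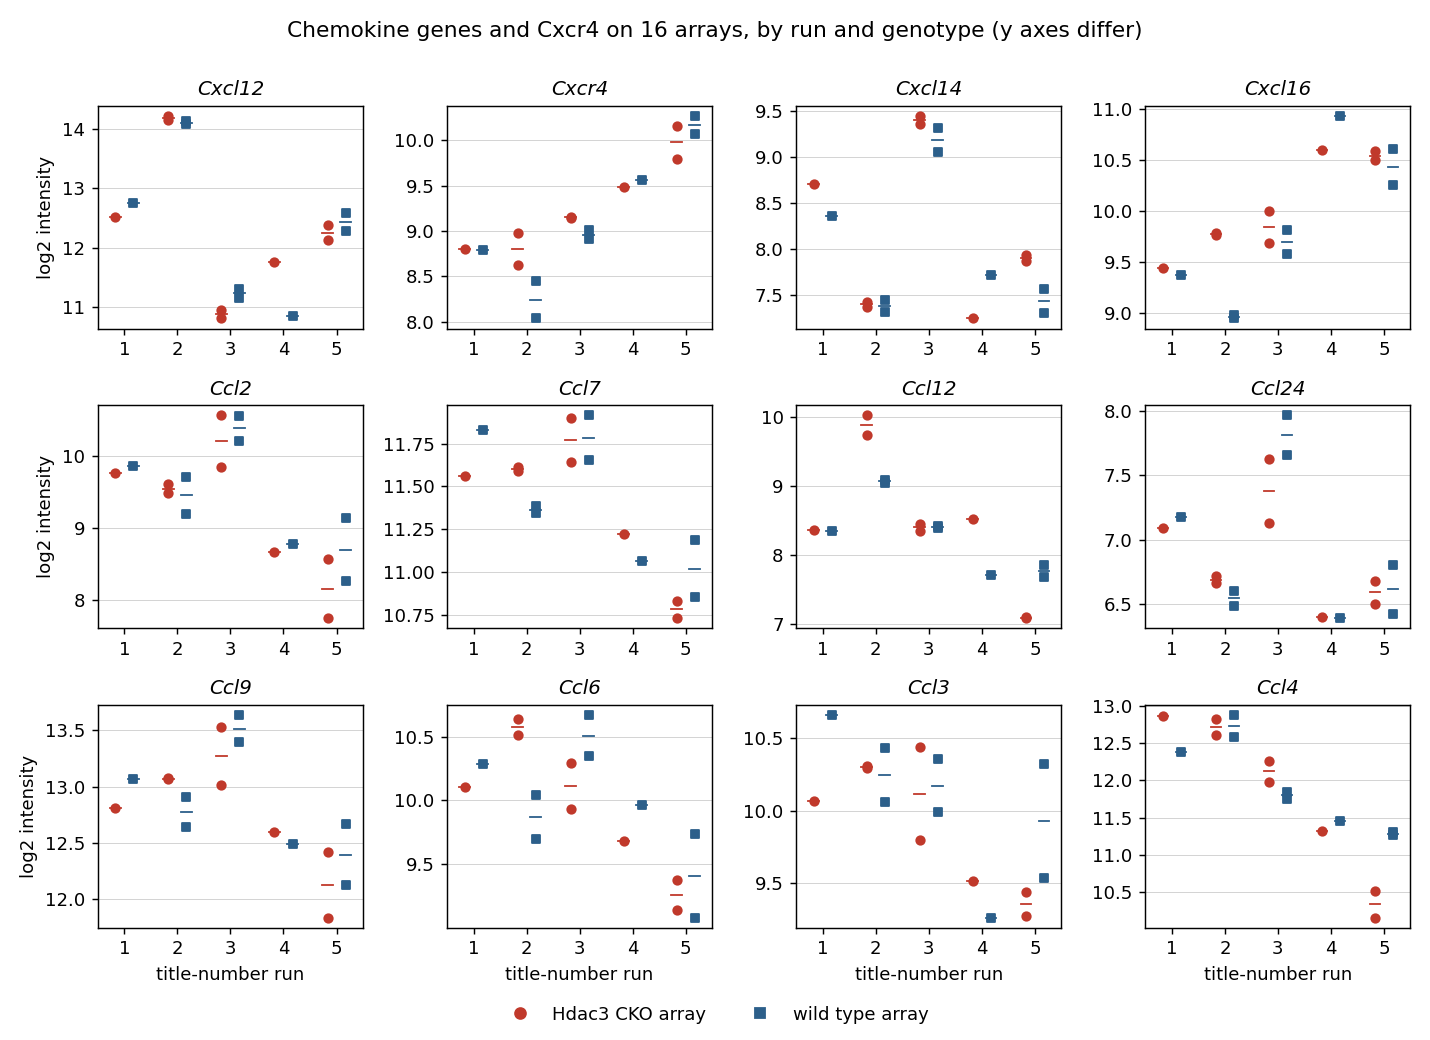
Log2 intensity of 11 chemokine genes and Cxcr4 on each of 16 arrays, by run on the horizontal axis, with circles for Hdac3 CKO arrays, squares for wild type arrays, and short lines for the mean of each run and genotype (vertical scales differ). Both genotypes move together between runs for most genes: Cxcl12 is at 14.08 or above on all 4 arrays of run 2 and at 11.30 or below on all 4 of run 3, whereas Ccl12 separates by genotype in opposite ways in runs 2 and 5.

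Ccl2 and Ccl7, ligands of the monocyte receptor Ccr2, varied between runs in a like order. Ccl2 read between 7.75 and 10.56 (median 9.54) on Hdac3 CKO arrays and between 8.26 and 10.56 (median 9.45) on wild type arrays. Its run means were 9.81, 9.50, 10.29, 8.72 and 8.43, highest in run 3 and lowest in run 5 (3.64-fold span, adjusted p = 9.46e-05). The genotype difference of Ccl2 was -0.19 (95% interval -0.51 to 0.14 with the block, adjusted p = 0.722), and Hdac3 CKO was lower in 4 of 5 runs. Ccl7 read between 10.73 and 11.90 (median 11.57) on Hdac3 CKO arrays and between 10.85 and 11.91 (median 11.37) on wild type arrays. Its run means spanned 1.84-fold, again highest in run 3 and lowest in run 5 (adjusted p = 1.35e-04), and its genotype difference was -0.02 (95% interval -0.18 to 0.14 with the block). The receptor Ccr2 itself averaged 6.10 ± 0.03 on Hdac3 CKO and 6.07 ± 0.13 on wild type arrays (SD, n = 8 each), below the median probe.

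Ccl12, a mouse monocyte ligand whose gene lies in a cluster with those of Ccl2 and Ccl7 on chromosome 11, was the single gene of the 47 whose genotype difference itself differed between runs. The limma F test of the genotype by run interaction gave it an adjusted p of 0.00292, 1 of 47 genes called against 0.494% of all probes (0.88% of those above the median probe), while 8 of 47 had an unadjusted p under 0.05, against 7.62% of all probes. In run 2 Ccl12 read 10.02 and 9.73 on KO15 and KO16 and 9.04 and 9.08 on WT13 and WT14, in run 4 8.51 on KO32 and 7.70 on WT30, and in run 5 7.09 and 7.08 on KO46 and KO47 and 7.86 and 7.67 on WT42 and WT44. In runs 1 and 3 it read 8.36, 8.44 and 8.35 on KO7, KO23 and KO24, and 8.34, 8.38 and 8.42 on WT5, WT21 and WT22. Hdac3 CKO was thus higher by 0.81 in runs 2 and 4, differed from wild type by -0.68 in run 5 and by 0.02 and -0.01 in runs 1 and 3, with an SD within run and genotype of 0.10. This test had 6 residual degrees of freedom, all from runs 2, 3 and 5. Without run 2 the call was lost (adjusted p = 0.146), whereas without any other single run the adjusted p lay between 0.00145 and 0.0219. A dimmer Ccl12 probe had differences of -0.29, 0.61, -0.12, 0.43 and -0.46 in the 5 runs and did not pass (adjusted p = 0.202). Over all arrays the difference of Ccl12 was 0.14 (95% interval -0.19 to 0.46 with the block, adjusted p = 0.820), and without run 2 it was -0.09 (adjusted p = 0.941 with the block).

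Run 2, where 13 of the 15 genes above the median probe were higher in Hdac3 CKO, also differed in markers of other cells. In that run the mean of 13 macrophage markers was 11.20 and 11.23 on KO15 and KO16, against 10.50 and 10.57 on WT13 and WT14. The mean of 5 adipocyte markers was 1.26 higher in Hdac3 CKO in run 2 (0.58 higher over all arrays), those of neutrophil and leukocyte markers 0.49 and 0.45 higher, and that of stromal and osteoblast markers differed by -0.42. In the other runs the macrophage mean differed by 0.10 (run 1), -0.03 (run 3), 0.02 (run 4) and 0.16 (run 5), and over all 16 arrays it lay between 10.80 and 11.35 in Hdac3 CKO and between 10.50 and 11.31 in wild type. In run 5 the same 15 genes were higher in Hdac3 CKO in 2 of 15 cases, with a median difference of -0.19, against 0.15 in run 2 and -0.03, -0.01 and 0.01 in runs 1, 3 and 4. Of all probes above the median probe, between 46.3% and 51.4% were higher in each run. Fewer macrophages and less RNA per macrophage cannot be told apart in such cultures, and the part of any of these markers, or of the missing Y-linked signal on WT13 and WT14, in these directions was not tested.

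**Figure D4:**
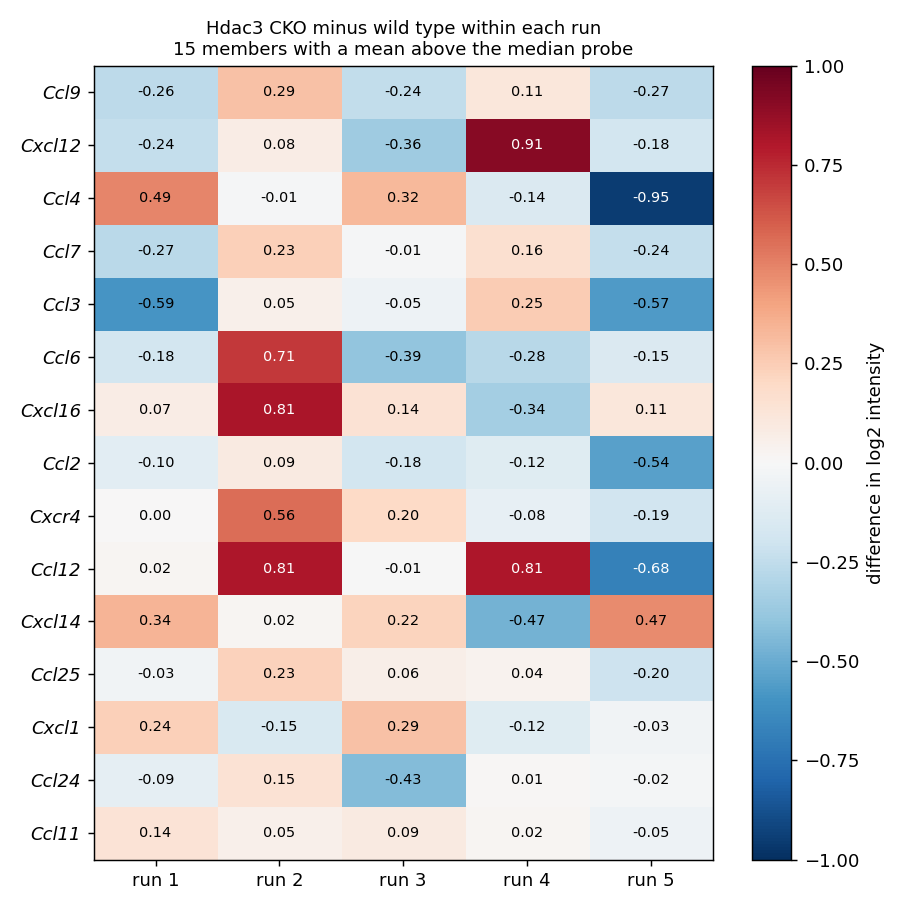
Hdac3 CKO minus wild type difference in log2 intensity within each of the 5 runs (columns) for the 15 genes above the median probe (rows), with red for higher and blue for lower in Hdac3 CKO. In run 2, 13 of 15 genes are higher, including Ccl12, Cxcl16 and Ccl6; in run 5, 2 of 15 are higher, and Ccl4 stands at -0.95.

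The 5 ligands made mainly by macrophages and other leukocytes, Ccl3, Ccl4, Ccl5, Ccl6 and Ccl9, all differed between runs, and their genes neighbour each other on chromosome 11. Ccl6 and Ccl9 are mouse ligands of Ccr1. All 5 were lower in Hdac3 CKO by value and none passed. Ccl4 read 10.16, 12.12 and 12.87 (lowest, median and highest) on Hdac3 CKO arrays, and 11.27, 11.80 and 12.87 on wild type arrays. KO46 and KO47, at 10.16 and 10.52, lay below all 14 other arrays, and the genotypes overlapped in the rest. The run means of Ccl4 were 12.62, 12.72, 11.96, 11.39 and 10.81 (3.76-fold span, adjusted p = 3.63e-05). Its genotype difference was -0.12 (95% interval -0.42 to 0.19 with the block) and was 0.16 without run 5, where it was -0.95. Its interaction with run had an adjusted p of 0.0505. A second, dimmer Ccl4 probe differed by -0.21 between genotypes (adjusted p = 0.520 with the block).

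Ccl9 read between 11.84 and 13.53 (median 12.91) on Hdac3 CKO arrays and between 12.12 and 13.63 (median 12.79) on wild type arrays. It was highest in run 3 and lowest in run 5, with run means 2.19-fold apart (adjusted p = 0.00110) and a genotype difference of -0.07 (95% interval -0.32 to 0.17 with the block). Its neighbours Ccl6 and Ccl3 spanned 1.97-fold and 1.96-fold between runs (adjusted p = 0.00918 and 0.0184), and the run difference of Ccl6 was lost without run 5 (adjusted p = 0.478), that of Ccl3 without run 2 or run 4 (0.0606 and 0.0626). Ccl6 was 0.71 higher in Hdac3 CKO in run 2 and lower in each of the other 4 runs, for a difference of -0.02 (95% interval -0.31 to 0.28 with the block) and of -0.26 without run 2 (adjusted p = 0.821 with the block). Ccl3 differed by -0.18 (95% interval -0.47 to 0.10 with the block), with -0.59 in run 1 and -0.57 in run 5. Ccl5, near the median probe, read 6.21 to 6.75 on Hdac3 CKO and 6.24 to 7.10 on wild type arrays, with a difference of -0.13 (adjusted p = 0.501 with the block) and its highest run mean in run 2 (6.86, adjusted p = 0.00176 between runs). The Ccl9 promoter, the 1 of the 5 with a sequence shown, covers chr11:83578637-83578886 on the minus strand (GRCm38.p6). Its capitals mark TATAAA on either strand, at 224 to 219, 94 to 89 and 92 to 87 bases before the start, and TGAATCA at 53 to 47. The latter matches the letters searched for AP-1 (TGA, any base, then TCA), a loose pattern, so it need not be an AP-1 site.
Ccl9: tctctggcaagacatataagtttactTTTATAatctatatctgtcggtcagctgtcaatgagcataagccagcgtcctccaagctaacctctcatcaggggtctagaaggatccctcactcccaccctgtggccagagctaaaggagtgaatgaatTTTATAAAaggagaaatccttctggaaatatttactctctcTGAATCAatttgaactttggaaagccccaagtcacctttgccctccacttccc

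Ccl11, Ccl24 and Ccl26 are eotaxins, ligands that draw eosinophils through Ccr3. Ccl24 read 6.40, 6.70 and 7.63 (lowest, median and highest) on Hdac3 CKO arrays, and 6.39, 6.70 and 7.97 on wild type arrays. Its run mean was 7.60 in run 3 and 6.40 in run 4 (2.30-fold span, adjusted p = 6.02e-05), and its genotype difference was -0.09 (95% interval -0.28 to 0.11 with the block). Ccl11 and Ccl26 differed neither between runs nor between genotypes beyond the threshold, with genotype differences of 0.04 and 0.05. Of 7 ligands that act mainly on lymphocytes and dendritic cells (Ccl1, Ccl17, Ccl19, Ccl20, Ccl22, Ccl25 and Ccl28), 0 passed the F test of runs, and their genotype differences lay between -0.04 (Ccl20) and 0.06 (Ccl22). Only Ccl25 of them was above the median probe. Ccl8, a further monocyte ligand, read 6.34 ± 0.22 on Hdac3 CKO and 6.33 ± 0.14 on wild type arrays (SD, n = 8 each).

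Cxcl16, a ligand made by macrophages that also takes up oxidized lipoprotein and signals through Cxcr6, was the 1 gene whose probe of highest mean had an unadjusted p under 0.05 in the fit with runs blocked, as 2 further probes did, a dimmer one of Cxcl14 and one of Cxcl12 (adjusted p = 0.226 and 0.435). It read between 9.44 and 10.60 (median 9.89) on Hdac3 CKO arrays and between 8.94 and 10.94 (median 9.70) on wild type arrays. WT13 and WT14 were the lowest of all 16 arrays, at 8.94 and 8.98, and WT30 the highest, and the genotypes overlapped. The difference was 0.23 (95% interval 0.002 to 0.47 and adjusted p = 0.443 with runs blocked, and exact permutation p = 0.120 within runs), and Hdac3 CKO was higher in 4 of 5 runs, by 0.81 in run 2, while no other run differed by more than 0.34 in size. Beside the runs, the macrophage marker mean as a covariate turned it to -0.04, and without run 2 it was 0.04. Between runs Cxcl16 was highest in run 4 (10.77) and lowest in run 2 (9.37, adjusted p = 6.52e-05), close to run 1 (9.41). Its lowest Hdac3 CKO array was KO7 of run 1, at 9.44. The macrophage marker mean was 11.32 in run 4, 10.88 in run 2 and lowest, at 10.75, in run 1. The part of macrophages in the Cxcl16 differences was not tested. The Cxcl16 receptor Cxcr6 averaged 6.51 ± 0.14 on Hdac3 CKO and 6.50 ± 0.19 on wild type arrays (SD, n = 8 each), below the median probe.

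Cxcl14, a ligand found in stroma and fat that acts on monocytes and dendritic cells, also differed between runs. It read between 7.24 and 9.45 (median 7.90) on Hdac3 CKO arrays and between 7.30 and 9.31 (median 7.63) on wild type arrays, with all 4 arrays of run 3 at 9.05 or above and all others at 8.70 or below. The run means were 8.53, 7.39, 9.29, 7.47 and 7.66 (adjusted p = 1.32e-07), so that run 3, lowest for Cxcl12, was highest for Cxcl14. The difference between genotypes was 0.16 (95% interval -0.03 to 0.35 with the block, adjusted p = 0.533), higher in Hdac3 CKO in 4 of 5 runs. A second probe gave 0.25 (adjusted p = 0.226 with the block), also higher in 4 of 5 runs, with run 4 as the exception on both probes.

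The runs differed likewise in markers of the cells that could make these ligands. Ibsp, the bone sialoprotein of mature osteoblasts, averaged 12.52, 13.95, 10.70, 11.35 and 10.06 in runs 1 to 5. Adipoq, the fat cell hormone adiponectin, averaged 8.49, 12.10, 7.36, 8.04 and 8.07, and Mrc1, a macrophage receptor, 10.60, 11.95, 10.50, 12.18 and 11.79. The mean of 13 macrophage markers was 10.75, 10.88, 10.93, 11.32 and 11.21, and so, unlike Mrc1, was lower in run 2 than in run 3. Run 2, where Cxcl12 was highest, was also the highest run for Ibsp, for Adipoq and for the mean of 11 stromal and osteoblast markers (10.39). Run 3, where Cxcl12 was lowest, was the lowest for Adipoq and for that mean (9.28), but not for Ibsp. The part of these cells in the run differences of the chemokine genes was not tested.

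Cxcl1, Cxcl2, Cxcl3, Cxcl5 and Cxcl15 attract neutrophils, in mouse mainly through Cxcr2. Cxcl1 read between 7.42 and 8.33 (median 7.79) on Hdac3 CKO arrays and between 7.40 and 8.15 (median 7.65) on wild type arrays, and was highest in run 1 (8.21) and lowest in run 4 (7.48, adjusted p = 0.00191 between runs). Its genotype difference was 0.04 (95% interval -0.11 to 0.19 with the block). Cxcl5 differed between runs too (6.71 in run 5 and 6.23 in run 4, adjusted p = 0.00618, and not without run 5), with a genotype difference of -0.11 (adjusted p = 0.533 with the block). Cxcl5 lay below the median probe, as did Cxcl2, Cxcl3 and Cxcl15, whose differences were between -0.05 and 0.01. Cxcr2 averaged 6.24 ± 0.04 on Hdac3 CKO and 6.18 ± 0.08 on wild type arrays (SD, n = 8 each), and Cxcr1 was likewise below the median probe.

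The promoters of Cxcl1, Cxcl2 and Cxcl3, which lie in a cluster on chromosome 5, are shown because each holds GGGAATTTCC, a match to the NF-kB motif searched for (GGGA, any base, then TTTCC), capitalized with the TATAAA of Cxcl3. They cover chr5:90890995-90891244, chr5:90903649-90903898 and chr5:90785851-90786100, all on the plus strand (RefSeq, GRCm38.p6). The match lies 71 to 62 bases before the start in Cxcl1, 97 to 88 in Cxcl2 and 73 to 64 in Cxcl3.
Cxcl1: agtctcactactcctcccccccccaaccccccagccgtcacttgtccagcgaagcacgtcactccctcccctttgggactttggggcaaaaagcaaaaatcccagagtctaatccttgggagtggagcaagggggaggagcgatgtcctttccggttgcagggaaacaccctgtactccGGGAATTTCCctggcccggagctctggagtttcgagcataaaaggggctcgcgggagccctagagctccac
Cxcl2: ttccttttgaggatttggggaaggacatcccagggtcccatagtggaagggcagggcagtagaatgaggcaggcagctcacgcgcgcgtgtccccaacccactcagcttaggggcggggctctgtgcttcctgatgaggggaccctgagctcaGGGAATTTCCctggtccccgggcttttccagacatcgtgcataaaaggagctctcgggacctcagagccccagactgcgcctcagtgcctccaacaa
Cxcl3: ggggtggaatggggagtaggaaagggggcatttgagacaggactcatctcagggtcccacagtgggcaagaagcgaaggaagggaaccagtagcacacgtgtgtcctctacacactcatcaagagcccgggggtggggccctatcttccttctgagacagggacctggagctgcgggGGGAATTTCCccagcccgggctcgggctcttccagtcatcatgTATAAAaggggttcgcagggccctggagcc
The RefSeq table matched 33 of the 47 genes, with 35 promoters, and each was searched on both strands over 250 bases. The NF-kB motif was found in 11.4% of the promoters (Cxcl1, Cxcl2, Cxcl3 and Ccr3), against 0.356% of 32851 mouse promoters of the same length. TATAAA was found in 25.7%, against 12.4% of all. TGANTCA, the loose pattern searched for AP-1 with any base in the middle, was found in 11.4%, against 6.75%. The core of the interferon-stimulated response element (GAAA, any 2 bases, then GAAA) was found in 8.57% (Cxcl10, Cxcl14 and Ccl19), against 2.98%. A match describes letters and no binding was measured. Of the 3 neighbouring ligands with the same NF-kB match, Cxcl1 alone was above the median probe and passed the test between runs.

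Cxcl9, Cxcl10 and Cxcl11, ligands induced by interferon that act on Cxcr3, were at or below the median probe. Cxcl9 nevertheless differed between runs, its mean being 7.01 in run 2, while the other 4 means lay from 6.22 to 6.54 (adjusted p = 1.46e-05, and 0.0740 without run 2). On KO15 and KO16 it read 7.11 and 7.06, and on WT13 and WT14 7.11 and 6.74, so both genotypes were high there. Cxcl10 was highest in run 1 (6.89) and lowest in run 5 (6.17, adjusted p = 0.00281). The genotype differences of Cxcl9 and Cxcl10 were 0.06 and 0.02, and neither passed. Cxcl11, annotated as a transcribed pseudogene in the C57BL/6J reference, averaged 6.17 on Hdac3 CKO and 6.25 on wild type arrays and was lower in 5 of 5 runs (difference -0.08, adjusted p = 0.543 with the block), at the level of dim probes. Cxcl13, which draws B cells, Cxcl17, a mucosal chemokine, and Cxcl15 had differences of 0.02, 0.03 and -0.03.

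The receptors other than Cxcr4 gave signals close to the median probe or below it. Means of the 9 CC receptors ran from 6.08 (Ccr2) to 6.59 (Ccr6) and those of the other 5 CXC receptors from 6.21 (Cxcr2) to 6.51 (Cxcr6), which are separate probes and give no order of expression. None of these 14 passed the F test of runs, the interaction or the test of genotype. By value all 6 CXC receptors and 5 of 9 CC receptors were higher in Hdac3 CKO. Ccr1, a receptor for Ccl3, Ccl5, Ccl6, Ccl7 and Ccl9, read between 6.02 and 6.31 on Hdac3 CKO and between 5.91 and 6.30 on wild type arrays, with a difference of 0.10 (95% interval -0.01 to 0.22 with the block, adjusted p = 0.501). Ccr4, the receptor for Ccl17 and Ccl22, differed by 0.08 (adjusted p = 0.590 with the block) and Cxcr3 by 0.09 (adjusted p = 0.486). The genotypes overlapped for both, with 6.29 to 6.52 for Ccr4 on Hdac3 CKO and 6.20 to 6.41 on wild type arrays, and 6.35 to 6.66 for Cxcr3 on Hdac3 CKO and 6.29 to 6.52 on wild type arrays.

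Other genes of the chemokine system, taken from a list of 20 with other names, gave 0 calls for genotype in either limma fit. At an unadjusted p under 0.05 the counts were 0 without the block (4.74% of all probes) and 3 with it (11.2% of all probes). Of the 20 genes 6 (30%) differed between runs, against 20.1% of all probes, and 1 had an interaction, against 0.494%. Cx3cr1, the fractalkine receptor of monocytes and macrophages, averaged 8.36 ± 1.23 on Hdac3 CKO and 7.82 ± 1.20 on wild type arrays (SD, n = 8 each). Its difference was 0.55 (SE 0.13 with the block, adjusted p = 0.109), with run means of 7.13, 6.84, 7.79, 9.72 and 9.30. Rarres2, which encodes the chemoattractant chemerin, differed by 0.42 (adjusted p = 0.238 with the block), with 1.27 in run 2 and no other run above 0.38, and is the gene with the interaction (adjusted p = 0.00691). Without run 2 it differed by 0.14 (adjusted p = 0.821 with the block) and the interaction was lost (adjusted p = 1.00). The adipocyte markers were 1.26 higher in Hdac3 CKO in the same run, and their part in this difference was not tested. The scavenging receptor Ackr4 differed by -0.17 (adjusted p = 0.420, and -0.10 without run 2) and the cytokine Mif by -0.13 (0.483). Ackr3, a scavenging receptor for Cxcl12, averaged 6.06 on Hdac3 CKO and 6.10 on wild type arrays, at the level of dim probes.

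Of 22 genes for signalling downstream of the receptors 20 were measured, and 0 passed for genotype in either limma fit, while 16 (of all probes, 48.7%) were higher in Hdac3 CKO by value, with a median of 0.11. At an unadjusted p under 0.05 the counts were 6 of 20 with the block, against 11.2% of all probes, and 3 without it, against 4.74%. Elmo1 and Vav1, which couple the receptors to Rac activation, differed by 0.35 and 0.33 (adjusted p = 0.115 and 0.218), Pik3cg, a lipid kinase driven by G protein subunits, by 0.38 (0.136), and the exchange factor Prex1 by 0.31 (0.142). Each was higher in 4 of 5 runs, and run 4 was the exception for all 4. In run 2 Pik3cg differed by 0.85, Vav1 by 0.73 and Prex1 by 0.62, and without that run by 0.22, 0.20 and 0.20 (adjusted p = 0.814, 0.821 and 0.821). Of 22 genes of the NF-kB and inflammatory response 20 were measured and 0 passed for genotype, with 15 higher by value (48.7% of all probes) and a median of 0.038. At an unadjusted p under 0.05 there were 4 with the block, against 11.2% of all probes, and 2 without it, against 4.74%. Vcam1, an adhesion molecule that holds blood progenitors to stroma, differed by 0.33 (adjusted p = 0.213 with the block). The NF-kB subunit Nfkb2 and the inhibitor Nfkbie differed by 0.15 and 0.16 (adjusted p = 0.290 and 0.373), each higher in 5 of 5 runs, and the apoptosis inhibitor Birc3 by 0.13 (0.403). Leukocyte markers were also higher by value in Hdac3 CKO: their mean was 10.42 to 10.79 on Hdac3 CKO and 10.01 to 10.58 on wild type arrays, and their part in these differences was not tested.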

How the data were processed

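The deposited values are probe intensities on a linear scale. They were taken as quantile normalized by the authors because lowest, median and highest values nearly matched across arrays. The range was 53.1 to 37892, with a lowest value of 54.2 on WT44, and array medians were 97.1 to 97.2. The background treatment is not given in the sources used here. Per the labels, total RNA was isolated with TRIzol and labelled with biotin. Intensities were floored at 16 and log2 transformed, with no further normalization, and 25697 probes on 16 arrays were tested. Symbols came from the 2016 platform annotation, which left 1719 probes unnamed here; all 47 symbols were the same after an update through Entrez identifiers to the RefSeq table. Probe sequences were not used, so cross-hybridization between related genes was not checked.

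Genotype was tested in R 4.3.3 by limma's moderated two-sided test (version 3.58.1), adjusted after Benjamini and Hochberg across the probes with 0.05 as the threshold, without a covariate and with the 5 runs of title numbers as a fixed block (a new run starts after a gap over 4). Runs and the genotype by run interaction were tested with limma F tests. Labels call all wild type arrays 1 replicate and all Hdac3 CKO arrays another, so they pair no arrays. Exact permutation tests used all 12870 arrangements (smallest p 0.000155). Those given as within runs used the 864 arrangements that keep each run's balance of genotypes (smallest p 0.00231). The code was tested on simulated data. Alternatives left out each array and run, subtracted 40 from intensities, dropped dim probes, changed the variance model or weights, averaged all probes of a gene, used a rank sum test, runs as a random block or 5 pairs of means, and added a macrophage covariate.

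The genes and lists were chosen with earlier results of these data known. Named are genes passing for genotype, the 10 with the smallest p with the block, the 10 with the highest means, 16 of known roles, and up to 6 with the smallest p between runs; of the other lists, up to 4 each by p. Genes added after their values were seen are the remaining members, given by value, range or sign, and the marker genes.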

Additional observations from a re-analysis of the deposited data

Results flagged for a closer look

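Within each genotype, each of 38 genes (the chemokine and receptor genes and the genes of the other lists that the naming rule selected, with Ackr3 and Hdac3) was checked for a single array far from the other 7. Of 76 such groups 1 stood out, where chance gives about 1 in 20. In Ackr3, the scavenging receptor for Cxcl12, WT13 had the lowest wild type value, 5.95, with the next at 6.08 and the highest at 6.20, so that its gap was 0.529 of the range, just above Dixon's 95% critical value for 8 values. All these values lie below the median probe.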

How the results depend on the processing

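No chemokine or chemokine receptor gene passed for genotype under any of the 29 alternatives run on either fit, their median difference stayed between -0.016 and 0.046 over 27 alternatives, and Hdac3 stayed lower in Hdac3 CKO and uncalled in all 27. Between 13 and 20 genes differed between runs under every alternative, but the alternative that dropped dim probes left only 15 of the 47 genes to count. Over all probes, 0 passed without a block and 56 with the runs as a fixed block. With the block the count was 5 without run 2, 15 without run 3, 149 without run 4 and 20 without run 5, from 12 to 149 without single arrays (149 without WT30 or KO32), 8 with the macrophage covariate, and 0 when the run was a random block or gave 5 pairs. Labels give the genotypes no shared replicate numbers, so the run served as the replicate block. The interaction, called for 1 gene, was called for 0 without run 2, for 2 without run 4 or with a trended robust variance, for 4 without run 5, and for 1 to 3 without single arrays (2 without WT30, KO32 or WT42 and 3 without KO47).

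Differences of genes that were not called changed sign; the cause was not tested. In both fits, Ccl7 (0.019) and Ccl6 (0.0080) did so without run 1, Cxcr4 (-0.010) and Ccl12 (-0.089) without run 2, Cxcl12 (0.077), Ccl6 (0.11), Cxcl1 (-0.041) and Ccl24 (0.028) without run 3, Ccl6 (0.022), Cxcr6 (-0.024) and Cxcl10 (-0.035) without run 4, and Cxcl12 (0.019), Ccl4 (0.16), Ccl7 (0.057) and Ccl6 (0.028) without run 5. Without the block, array weights gave Cxcl12 0.18, Ccl4 0.070, Ccl6 0.030 and Cxcl14 -0.0071, and the macrophage covariate gave Ccl9 0.068, Cxcl12 0.29, Ccl4 0.38, Ccl7 0.15, Ccl3 0.018, Ccl6 0.080, Cxcl16 -0.24, Ccl2 0.15, Cxcr4 -0.29, Ccl24 0.031 and Ccl5 0.048. With the block, array weights gave Cxcr6 -4.9e-05, the covariate Cxcl16 -0.039, Cxcr4 -0.056 and Ccl12 -0.094, and the 5 pairs Cxcl12 0.042.

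Without single arrays and without the block, the differences ranged from -0.30 to 0.22 for Cxcl12, -0.096 to 0.077 for Ccl7, -0.14 to 0.10 for Ccl6, -0.038 to 0.10 for Cxcl1, -0.040 to 0.076 for Cxcl10, -0.27 to 0.12 for Ccl4, -0.025 to 0.29 for Cxcr4, -0.088 to 0.33 for Ccl12, -0.031 to 0.15 for Cxcl9, -0.18 to 0.065 for Ccl9, -0.20 to 0.060 for Ccl24, -0.022 to 0.35 for Cxcl14, -0.046 to 0.047 for Cxcr6, -9.0e-04 to 0.055 for Ccr2 and -0.37 to 0.032 for Ccl2. With the block they ranged from -0.043 to 0.034 for Ccl7, -0.11 to 0.055 for Ccl6, -0.035 to 0.083 for Cxcl10, -0.17 to 0.011 for Cxcl12 and -0.027 to 0.041 for Cxcr6.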

Other observations

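Of the 20 chemokine system genes with other names, 6 differed between runs in the limma F test, and 5 of them were not described in this respect above. Ppbp, a platelet chemokine precursor, had run means of 8.06, 6.83, 9.66, 6.86 and 8.96 (adjusted p = 8.20e-07), with its highest mean in run 3. The megakaryocyte markers, Ppbp among them, averaged 8.05, 7.69, 8.75, 7.80 and 8.35 in the same runs. Ackr4, which scavenges Ccl19, Ccl21 and Ccl25, was highest in run 2 and lowest, at 6.40, in run 3 (adjusted p = 1.25e-07), as Cxcl12 was. Cx3cl1, the membrane-bound ligand of Cx3cr1, had 7.96 in run 2 and 7.40 in run 5 (adjusted p = 0.00307), and Ackr2, a scavenger of inflammatory CC ligands, 7.00 in run 4 and 6.61 in run 1 (adjusted p = 0.0415). Rarres2, which encodes chemerin, averaged 8.27 in run 2 and 6.47 in run 3 (adjusted p = 3.63e-05). These genes were picked after their values were seen.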
